A study of Mus musculus with 4 samples.

Results

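The 8 genes Obp2a, Ntrk2, Eno1b, Ctse, Corin, Mrap2, Tmc5 and Nuggc are protein-coding genes with many reads in DBA/2J liver and few in C57BL/6J liver. They were picked out of the 50584 gene symbols of the deposited count tables because both DBA/2J libraries had many counts and both C57BL/6J libraries had almost none, so their strain difference is described here without a test. Poly(A) RNA was sequenced from the livers of 2 DBA/2J and 2 C57BL/6J mice. The strains are inbred, and all 4 animals were wild-type males of 14 weeks on a chow diet, with no treatment given in the labels. The series concerns Mlycd, the gene of malonyl-CoA decarboxylase, which had a mean of 60.3 CPM in DBA/2J and 113 CPM in C57BL/6J. Levels are given as counts, as CPM (counts scaled to the size of the library) or, between genes, as CPM per kb of annotated exon.

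The members belong to different systems, most of them known from tissues other than liver. Obp2a encodes a secreted odorant-binding protein of the lipocalin family, small barrel-shaped carriers of hydrophobic molecules. Ntrk2 encodes TrkB, the receptor tyrosine kinase of brain-derived neurotrophic factor, best known in neurons. Corin is a membrane-bound serine protease that cleaves pro-atrial natriuretic peptide in the heart, and Mrap2 is an accessory protein that binds melanocortin receptors and acts on energy balance in the hypothalamus. Ctse is cathepsin E, an intracellular aspartic protease found in stomach epithelium, immune cells and red cells. Nuggc is a nuclear GTPase of germinal centre B cells, Tmc5 belongs to the transmembrane channel-like family, and Eno1b is a retrotransposed copy of the alpha-enolase gene Eno1.

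The sequences ahead of the start sites of 4 of the 8 genes, Obp2a, Corin, Mrap2 and Ntrk2, were matched in RefSeq (GRCm38.p6). They are shown because the genes share a strain pattern and the letters are those of C57BL/6J, the strain of that assembly, in which the genes had few reads; the DBA/2J sequence was not analysed here. Each runs 5′ to 3′ on the gene's own strand and stops before the RefSeq start and before the first exon of the count tables. Obp2a spans chr2:25699824-25700042 (forward strand), Corin chr5:72504541-72504790 (reverse strand), Mrap2 chr9:87144056-87144305 (forward) and Ntrk2 chr13:58806319-58806568 (forward). Capitals mark matches to the motifs named after the sequences.
Obp2a: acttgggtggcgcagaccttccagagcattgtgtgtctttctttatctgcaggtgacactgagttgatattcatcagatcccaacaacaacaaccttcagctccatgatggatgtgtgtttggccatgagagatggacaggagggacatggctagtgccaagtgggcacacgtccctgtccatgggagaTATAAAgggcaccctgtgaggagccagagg
Corin: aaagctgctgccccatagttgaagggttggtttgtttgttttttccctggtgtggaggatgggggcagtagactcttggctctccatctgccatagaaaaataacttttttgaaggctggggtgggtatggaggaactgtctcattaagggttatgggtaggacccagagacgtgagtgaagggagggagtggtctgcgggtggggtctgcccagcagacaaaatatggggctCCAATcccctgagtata
Mrap2: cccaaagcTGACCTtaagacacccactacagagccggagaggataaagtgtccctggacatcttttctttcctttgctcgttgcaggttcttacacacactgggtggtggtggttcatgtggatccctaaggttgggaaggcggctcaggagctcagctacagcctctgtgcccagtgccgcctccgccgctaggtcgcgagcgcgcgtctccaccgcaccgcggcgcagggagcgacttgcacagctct
Ntrk2: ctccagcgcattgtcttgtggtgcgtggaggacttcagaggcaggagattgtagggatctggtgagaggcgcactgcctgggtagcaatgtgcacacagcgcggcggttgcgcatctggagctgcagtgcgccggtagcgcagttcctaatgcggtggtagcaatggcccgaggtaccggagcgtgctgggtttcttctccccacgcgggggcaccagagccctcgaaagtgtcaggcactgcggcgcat

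In the 250 bases before the RefSeq start, 8 motifs were sought on both strands. A TATA box (TATAAA) was matched in Obp2a and in 12.4% of 32851 promoter windows of the same length, and a CCAAT box (CCAAT) in Corin and in 33.8% of windows. A nuclear receptor half-site (AGGTCA) was matched in Obp2a and Mrap2 and in 14.0% of windows; the Obp2a match lies past the end of the stretch printed. The GC box (GGGCGG, in 32.7% of windows), HNF1 half-site (GTTAAT, 6.43%), FOXA (TGTTTAC, 3.17%), C/EBP (TTGCNNAA, 9.56%) and STAT (TTCNNNGAA, 7.02%) letters were not matched in the 4 windows. The windows differed in base composition: Obp2a and Corin held 2 CpG dinucleotides each, Mrap2 16 and Ntrk2 19, against a median of 6. No motif of the 8 was found in all 4 genes.

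In CPM, Obp2a stood highest of the 8 genes in each DBA/2J library. Its counts were 30127 and 17947 in DBA/2J replicates 1 and 2, and 144 and 216 in C57BL/6J replicates 1 and 2. The means were 474 CPM ± 212 and 3.64 CPM ± 0.971 (SD, n = 2 each). The ratio of summed counts, scaled to library size, was 127, with a 95% exact counting interval from 115 to 141. "Near silent" did not describe Obp2a in C57BL/6J: at 4.89 CPM per kb it exceeded 63.7% of the 15647 genes tested there, and stood above the DBA/2J level of Tmc5 (2.68 CPM per kb).

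Ntrk2 had 4478 and 5185 counts in DBA/2J and 34 and 21 in C57BL/6J. Its means were 93.3 CPM ± 0.64 and 0.559 CPM ± 0.196 (SD, n = 2 each), a ratio of 167 (95% counting interval 128 to 222). The DBA/2J libraries differed by 1.01-fold, the closest agreement among the 8 genes. Counts are summed over the gene, so forms of TrkB with and without the kinase domain cannot be told apart.

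Corin had 1432 and 1369 counts in DBA/2J and 10 and 1 in C57BL/6J, with means of 27.2 CPM ± 3.49 and 0.113 CPM ± 0.131 (SD, n = 2 each) and a ratio of 243 (95% counting interval 135 to 486). The C57BL/6J side rests on few reads: leaving out C57BL/6J replicate 1 gave a ratio of 1350, and leaving out replicate 2 of that strain gave 132. Mrap2 had 642 and 949 counts in DBA/2J and 2 and 4 in C57BL/6J, with a ratio of 253 (95% counting interval 116 to 689). Its DBA/2J mean was 15.2 CPM ± 2.72 (SD, n = 2).

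Ctse had 1344 and 1859 counts in DBA/2J and 12 and 19 in C57BL/6J, with means of 30.7 CPM ± 4.06 and 0.313 CPM ± 0.0951 (SD, n = 2 each). At 98.4 (95% counting interval 69.2 to 145), its ratio was the smallest of the 8 over all 4 libraries. Without DBA/2J replicate 1 the log2 ratio of Ctse was 6.74, above those of Obp2a (6.47) and Nuggc (6.59). Nuggc had 719 and 431 counts in DBA/2J and 3 and 5 in C57BL/6J, with a ratio of 137 (95% counting interval 69.3 to 318). Tmc5 had 548 and 699 counts in DBA/2J, while C57BL/6J had 0 and 1. The Tmc5 ratio was 1188, and its 95% counting interval ran from 213 to 46953. Without C57BL/6J replicate 1 the Tmc5 ratio was 601; without replicate 2 the strain has no Tmc5 count and no ratio was formed.

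Eno1b had 1598 and 1971 counts in DBA/2J and 12 and 9 in C57BL/6J, with means of 34.4 CPM ± 1.77 and 0.213 CPM ± 0.0466 (SD, n = 2 each) and a ratio of 162 (95% counting interval 106 to 262). For each of the 8 genes the lower DBA/2J library stood above the higher C57BL/6J library, which is how they were picked; 32.5% of all tested genes did the same. A count of 3 in a library, the floor used here, corresponded to 0.0542 to 0.0622 CPM. Tmc5 lay below this floor in both C57BL/6J libraries, and Corin and Mrap2 in 1 each. Intervals and the floor cover counting error only.

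**Figure D1:**
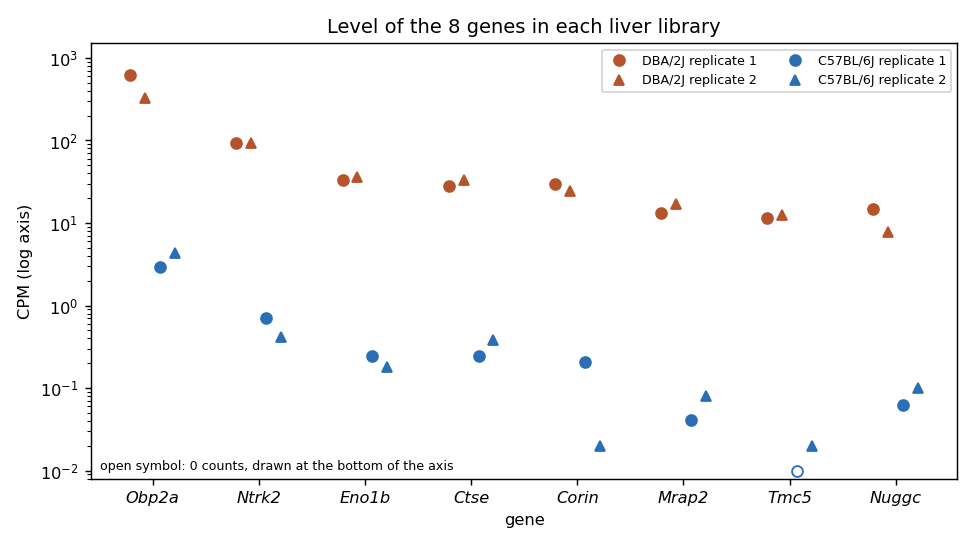
Level of the 8 genes in CPM (log axis) in each of the 4 libraries, ordered by their DBA/2J mean; rust is DBA/2J and blue C57BL/6J, circles are replicate 1 and triangles replicate 2, and an open symbol is a library with 0 counts drawn at the bottom of the axis. Each gene has both rust points above both blue points, and Obp2a is the highest gene in every library.

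Per kb of exon, the DBA/2J means ran from 638 CPM per kb for Obp2a, above 99.5% of tested genes, to 2.68 for Tmc5, above 51.1%. Eno1b followed Obp2a at 19.6 CPM per kb and Ctse at 9.69. Ntrk2 (6.76) and Mrap2 (6.75) could not be ordered, since the Mrap2 libraries, at 5.90 and 7.60, lay on both sides of those of Ntrk2. Corin (5.04) and Nuggc (4.0) overlapped as well, as did Nuggc and Tmc5. In C57BL/6J, apart from Obp2a, the means ran from 0.121 CPM per kb for Eno1b down to 0.00224 for Tmc5, and these 7 genes exceeded between 0.326% and 10.2% of tested genes. Exon length was summed over every exon annotated to the symbol, so a transcript may be shorter.

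Within DBA/2J, Obp2a and Nuggc varied most. Replicate 1 exceeded replicate 2 by 1.92-fold for Obp2a and 1.91-fold for Nuggc, and 95.8% and 95.7% of tested genes differed less between the same libraries. For Mrap2, replicate 2 exceeded replicate 1 by 1.29-fold, and Ctse, Corin, Tmc5, Eno1b and Ntrk2 differed by less than that. Obp2a did not keep the order of its replicate numbers across strains, being higher in replicate 2 of C57BL/6J.

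**Figure D2:**
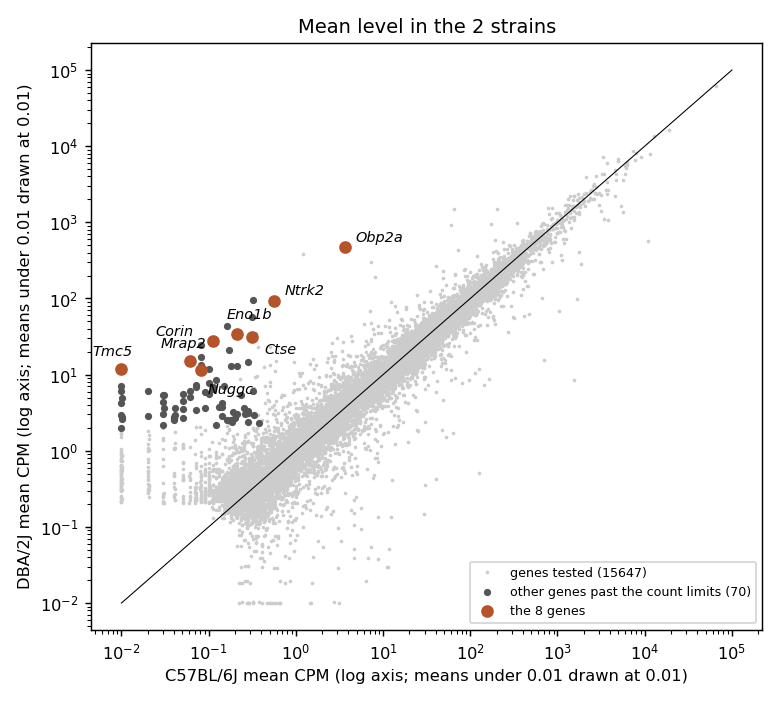
Mean CPM in DBA/2J (vertical, log axis) against C57BL/6J (horizontal, log axis) for 15647 tested genes (grey), the 8 genes (rust, named) and the 70 other genes with at least 100 counts in each DBA/2J and at most 20 in each C57BL/6J library (dark grey); the line marks equal levels, and means under 0.01 are drawn at 0.01. Obp2a and Ntrk2 lie to the right of the dark grey genes because they keep more than 20 counts in C57BL/6J.

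The pattern was also looked for in every other gene. With limits of at least 100 counts in each DBA/2J library and at most 20 in each C57BL/6J library, 76 genes qualified (0.486% of tested genes), 6 of the 8 among them. Obp2a and Ntrk2 did not, having more than 20 counts in C57BL/6J. Of the 70 other genes, 36 (51.4%) were annotated pseudogenes in GENCODE release M21 and 24 (34.3%) protein coding, against 3.13% and 84.3% of all tested genes.

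Among other genes with a symbol that is not a Gm or Rik name, those with high ratios included Ifi202b, an interferon-inducible gene (247 and 265 counts in DBA/2J, 1 and 0 in C57BL/6J, ratio 488), and Serpina3e-ps (ratio 299.6). C1s2, a copy of the complement protease gene C1s, had 2192 and 2264 counts against 5 and 11 (ratio 265). The ribosomal protein copies Rpsa-ps10 and Rpl15-ps2 had ratios of 184 and 177, RP24-401L24.1 had 144 and the alpha-adrenergic receptor gene Adra1d had 140. H2-Ea-ps, an MHC class II locus, had 362 and 360 counts against 0 and 0, and was at least 115-fold higher against the floor of 3 counts per library. Likeness here is the ratio over 4 libraries, and it was chosen on the strain difference itself.

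Genes next to the 8 loci were not used to pick them and were tested. Immediately downstream of Obp2a, Bmyc, a relative of the Myc gene, and A230005M16Rik rose in DBA/2J, and Cep162, a centriole gene that ends 5.53 kb past the end of Mrap2, rose as well. The genes nearest to Corin, Nuggc, Tmc5 and Ctse were not called. In all, 86 tested genes had their lowest coordinate within 500 kb of that of a member, around 7 of the 8 genes. Of these, edgeR's quasi-likelihood test called 7 higher and 11 lower, or 20.9%, where 18.2% of all tested genes were called (9.29% higher and 8.87% lower). The median log2 difference of the neighbours was -0.06, against 0.01 for all tested genes. Scaled by library totals alone, 9 were higher and 8 lower. Taking only the 14 neighbours within 100 kb, 3 were higher and 1 lower.

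Obp2a occupies bases 25700043 to 25703326 of chromosome 2 (GRCm38, forward strand), a gene-dense stretch with 35 tested neighbours, of which 3 were higher and 8 lower. Bmyc, which starts 3.41 kb past the end of Obp2a, had 250 and 373 counts in DBA/2J and 37 and 54 in C57BL/6J. The log2 difference was 2.69 ± 0.27 (SE), with an edgeR adjusted p of 0.00375. A230005M16Rik, on the reverse strand and overlapping Bmyc, had 135 and 109 counts against 10 and 18 and was higher by 3.06 ± 0.39 (edgeR adjusted p = 0.00781). Unlike Obp2a, Bmyc had fewer counts in DBA/2J replicate 1 than in replicate 2. Counting did not use strand, so reads of this pair cannot be told apart where their exons overlap. The A230005M16Rik call did not hold when either of the DBA/2J libraries was left out (edgeR adjusted p up to 0.0933), nor the Bmyc call when DBA/2J replicate 2 was (0.0626). The other neighbour calls likewise did not hold with either of the DBA/2J libraries left out. These fits leave a single DBA/2J library, and most calls over all tested genes were lost in them too.

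Upstream of Obp2a, 3 lipocalin genes fell in DBA/2J, the nearest of them, C8g, 198 kb away. Ptgds, the prostaglandin D2 synthase gene, had 66 and 109 counts in DBA/2J and 330 and 330 in C57BL/6J (log2 difference -1.995 ± 0.23, edgeR adjusted p = 0.00535). C8g, a subunit gene of complement component C8, stood at -0.62 ± 0.09 (edgeR adjusted p = 0.00991). Lcn12 had 0 and 2 counts against 11 and 11 (-3.37, edgeR adjusted p = 0.044), a call that did not hold in DESeq2 (adjusted p = 0.137), with no filter on low counts (edgeR, 0.104) or with a replicate block (edgeR, 0.0616). Other upstream genes called lower were Edf1 (-0.56), Uap1l1 (-1.15), Entpd2 (-1.26), Tubb4b (-0.44) and Fbxw5 (-0.36), and Nacc2, 352 kb downstream, was called higher (0.58). With no filter on low counts the calls of Uap1l1, Entpd2, Tubb4b and Fbxw5 did not hold (edgeR adjusted p from 0.063 to 0.0818), nor did those of Entpd2 and Fbxw5 with library totals alone (0.0531 and 0.0727) or the replicate block (0.0609 and 0.0573). The paralog Obp2b had 0 and 2 counts in DBA/2J and 0 and 0 in C57BL/6J. Of the 100-base windows of the Obp2a transcript, 4.81% also occur in Obp2b.

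Mrap2 is on chromosome 9 at 87144306 to 87184045 (forward strand). Cep162 lies tail to tail with it and had 507 and 602 counts in DBA/2J, while C57BL/6J had 270 and 191, a log2 difference of 1.19 ± 0.21 (edgeR adjusted p = 0.0167). Cyb5r4, on the other side of Mrap2, stood at -0.10 (edgeR adjusted p = 0.557). With a DBA/2J library left out, the adjusted p of Cep162 reached 0.161 in edgeR.

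Tmc5 is on chromosome 7 at 118597297 to 118675086 (forward strand). Its family member Tmc7, on the reverse strand, has its start 12.6 kb before that of Tmc5. Tmc7 stood at -0.73 ± 0.23 (edgeR adjusted p = 0.0822), and Gde1, which lies 13.5 kb past the end of Tmc5, at -0.22 (0.158). Farther out, the coenzyme Q gene Coq7 (-0.94) and the ribosomal protein gene Rps15a (-0.74) were called lower and Itpripl2 (0.75) and Knop1 (0.38) higher, though Knop1 was not called with no filter (edgeR adjusted p = 0.0932) or with the replicate block (0.0575). Ctse is on chromosome 1 at 131638306 to 131675505 (forward strand). Its nearest tested neighbours were Rab7b, at -1.29 ± 0.36 (edgeR adjusted p = 0.0627), and Fam72a, at 0.25 (0.689). Of its 16 tested neighbours Pm20d1, which encodes an N-acyl amino acid synthase, was called, at 286 CPM ± 10.8 in DBA/2J and 134 CPM ± 16.5 in C57BL/6J (SD, n = 2 each). The log2 difference was 1.09 ± 0.11 (edgeR adjusted p = 0.00361, and up to 0.0648 with a DBA/2J library left out).

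Corin is on chromosome 5 at 72300025 to 72504473 (reverse strand), 1.25 kb from the end of Atp10d, a phospholipid flippase gene. Atp10d stood at 0.55 ± 0.18 (edgeR adjusted p = 0.089) and Nfxl1, on the other side, at 0.06 (0.81). Nuggc is on chromosome 14 at 65598546 to 65648531 (forward strand), between Elp3 (-0.21, edgeR adjusted p = 0.476) and Scara5 (0.11, 0.837). edgeR called 0 of 6 tested neighbours of Corin and 0 of 11 of Nuggc; at an unadjusted p under 0.05 there was 1 for each, and DESeq2 called 0 and 1. Ntrk2 is on chromosome 13 at 58806596 to 59133970 (forward strand), and its 4 tested neighbours all lay more than 395 kb before it. The nearest, Rmi1, stood at -0.51 (edgeR adjusted p = 0.0748), and 2210016F16Rik was called lower (-0.36, edgeR adjusted p = 0.0494). That call did not hold in DESeq2 (adjusted p = 0.0593) or, in edgeR, with library totals alone (0.118), no filter (0.108) or the replicate block (0.083). Eno1b, on chromosome 18 at 48045335 to 48048378 (forward strand), had no tested gene within 500 kb.

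**Figure D3:**
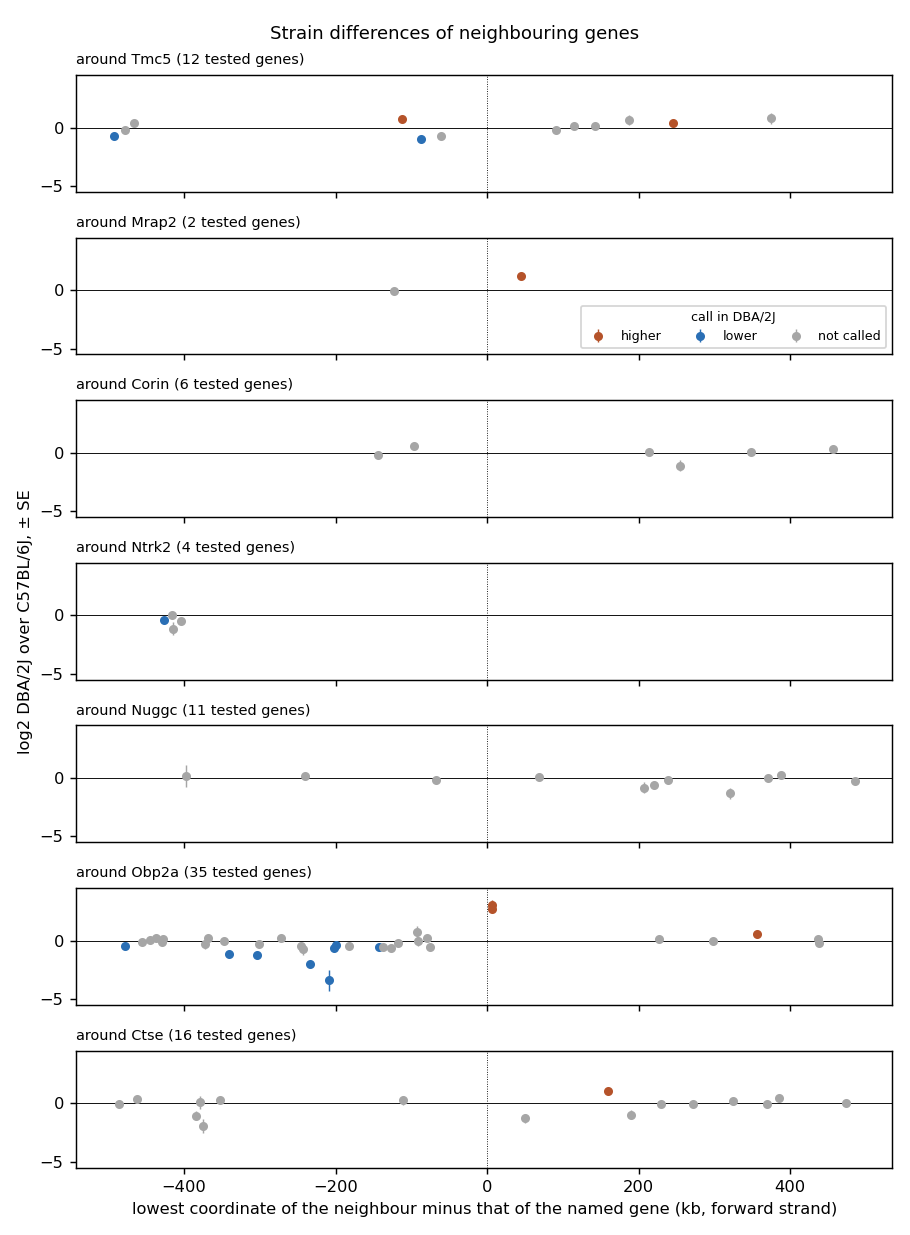
Log2 difference (DBA/2J over C57BL/6J, ± SE, vertical) of the tested genes around 7 of the 8 genes, against the distance in kb between lowest coordinates (horizontal); rust genes were called higher in DBA/2J, blue lower and grey not called, and the dotted line is the member. The rust pair beside Obp2a is Bmyc (2.69) and A230005M16Rik (3.06), and the rust gene beside Mrap2 is Cep162 (1.19).

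Partner and family genes of the 8 were called about as often as other genes, and apart from an enolase copy no called partner was more than 1 log2 unit higher in DBA/2J. Of 113 such genes in the tables, 73 were tested: 6 were called higher and 9 lower in DBA/2J, or 20.5%, beside 18.2% of all tested genes. Of these 15 calls, that of the enolase copy Gm4735 held when either of the DBA/2J libraries was left out, and the others did not. Most calls over all tested genes were lost in the same fits. The median log2 difference was -0.01, against 0.01 over all tested genes. These figures include Gm4735, which was listed as a partner after its value was known and met the count limits given above. Its call, among the 6 higher, and its holding in the leave-out fits were therefore no separate test of the partner genes.

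The natriuretic peptides that Corin acts on had almost no reads: Nppa had 0 and 0 counts in DBA/2J and 2 and 0 in C57BL/6J, and Nppb 0 and 0 against 9 and 0. Of 7 tested genes of the list, 1 was higher and 1 lower. Mme, which encodes neprilysin, a protease that degrades these peptides, was lower (13.0 CPM ± 0.175 against 33.6 CPM ± 4.47, SD, n = 2 each). The log2 difference was -1.37 ± 0.12 (edgeR adjusted p = 0.00253). Pcsk6, the gene of the convertase that activates Corin, was higher (0.72 ± 0.14, edgeR adjusted p = 0.0227, and 0.0644 with no filter). The other convertase gene Furin stood at 0.40 (0.0804) and the receptor genes Npr1, Npr2 and Npr3 at 0.32, 0.29 and -0.65, none of them called.

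The melanocortin receptors that Mrap2 is known to bind had at most 1 count in any library: Mc1r, Mc2r and Mc3r had 0 counts in all 4, Mc4r 0 and 1 in DBA/2J and 1 and 0 in C57BL/6J, and Mc5r 1 count in all. The ghrelin receptor gene Ghsr had 0 counts in all 4 libraries, which the floor limits to under 3 counts in each. The related accessory gene Mrap was well expressed, with 3291 and 3362 counts against 2030 and 2583 (0.47 ± 0.13, edgeR adjusted p = 0.0599). Of 4 tested genes of the list, Atrn (0.39, edgeR adjusted p = 0.0233) and its relative Atrnl1 (0.38, 0.0401), the attractin genes, were higher. With no filter on low counts neither call held (edgeR adjusted p = 0.0621 and 0.0936), nor did that of Atrnl1 with a replicate block (0.067).

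Of 13 tested neurotrophin genes, Sort1, the sortilin gene, was called, higher by 0.49 ± 0.08 (edgeR adjusted p = 0.0143). The TrkB ligand gene Bdnf had 131 and 173 counts in DBA/2J and 67 and 133 in C57BL/6J (0.53, edgeR adjusted p = 0.324), and Ntf5, another TrkB ligand gene, 2 and 0 against 2 and 1. The sister receptor gene Ntrk3 stood at 0.49 (edgeR adjusted p = 0.651), with at most 18 counts in a library. Among the adaptors, Frs2 stood at 0.30 (0.0663) and Shc1 at -0.14 (0.245).

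edgeR called 0 of 5 tested genes of the Tmc5 list, which holds Tmc family genes and Tmie (2 at an unadjusted p under 0.05, and 1 in DESeq2). Of these, Tmc7 was already counted among the neighbours of Tmc5. Tmc4 stood at -0.52 (edgeR adjusted p = 0.0682) and Tmie, a partner of the hair cell channels, at 0.24 (0.509), while Tmc1 and Tmc2 had at most 1 count in a library. For the germinal centre genes, edgeR called 0 of 7 tested (1 at an unadjusted p under 0.05, and 0 in DESeq2), of which Polh, S1pr2 and Fas stood at 0.44, 0.53 and -0.75.

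Of 10 tested lipocalins, 5 were lower in DBA/2J and 0 higher, opposite in sign to Obp2a. Over all tested genes, 8.87% were called lower and 9.29% higher. At an unadjusted p under 0.05 there were 7 lipocalins, and DESeq2 called 6. Of the 5 called by edgeR, Ptgds, Lcn12 and C8g were already counted among the neighbours of Obp2a. The others were Apom, an apolipoprotein of high-density lipoprotein (-0.84 ± 0.08, edgeR adjusted p = 0.00287), and Orm1, an acute phase protein gene (-0.94, 0.0196). Lcn2, an acute phase lipocalin, had 116 and 74 counts in DBA/2J and 4488 and 175 in C57BL/6J (-4.68, edgeR adjusted p = 0.0785), so that C57BL/6J replicate 1 stood apart. The part of that library's state in the lipocalin counts was not tested. Of 15 tested cathepsins and aspartic proteases, Ctsc, the dipeptidyl peptidase gene, was lower (-0.78, edgeR adjusted p = 0.0415) and Bace1, an aspartic protease gene, higher (0.50, 0.0422). With no filter on low counts these calls did not hold (edgeR adjusted p = 0.101 and 0.103). Ctsd, the lysosomal relative of cathepsin E, stood at -0.29 (0.0583), and the stomach aspartic protease genes Pgc and Pga5 had at most 3 counts in a library.

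**Figure D4:**
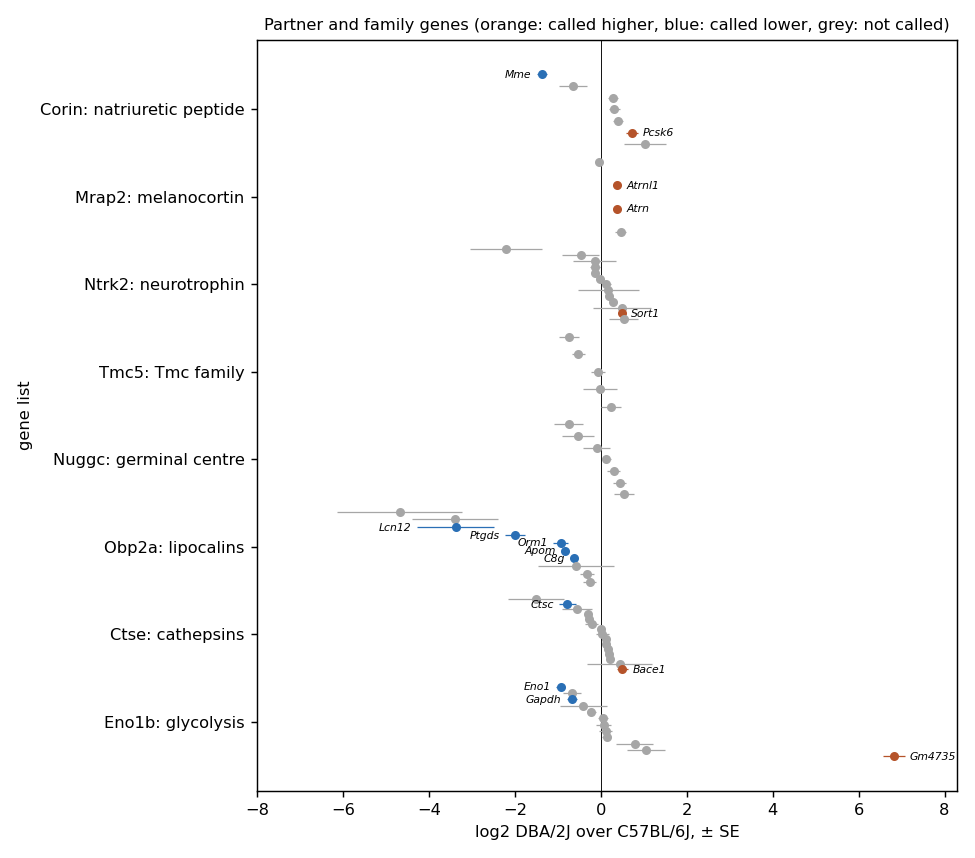
Log2 difference (DBA/2J over C57BL/6J, ± SE, horizontal) of tested partner and family genes, grouped by member; rust genes were called higher in DBA/2J, blue lower and grey not called, and called genes are named. Apart from Gm4735 (6.81), no called gene lies above 1, and the called lipocalins are all below 0.

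Eno1b shares most of its sequence with other genes, so its counts are uncertain. Of the 100-base windows of its annotated transcripts, 74.7% occur in transcripts of another gene, among them Eno1 and Gm4735. The share was 4.81% for Obp2a, 0.25% for Corin and 0 for the other 5 genes; unannotated copies were not searched. The processed pseudogene Gm4735 is 99.8% identical to Eno1b over its length and 99.6% identical to Eno1, and over that span Eno1b and Eno1 are 99.4% identical.

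The 3 enolase loci moved in different directions. Gm4735, listed as a partner after its value was known, had 575 and 633 counts in DBA/2J and 6 and 4 in C57BL/6J. Eno1 had 9346 and 11341 counts in DBA/2J and 17083 and 20556 in C57BL/6J. Its log2 difference was -0.94 ± 0.11 (edgeR adjusted p = 0.00552). Summed over Eno1, Eno1b and Gm4735, the libraries held 239 and 252 CPM in DBA/2J and 351 and 412 CPM in C57BL/6J. Of these sums, Eno1b and Gm4735 took 18.9% and 18.7% in DBA/2J, and 0.105% and 0.0632% in C57BL/6J. The sum was lower in both DBA/2J libraries than in either C57BL/6J library, and the share at the copies was higher. Reads of both strains were counted on a C57BL/6J-based genome, and whether the DBA/2J reads at Eno1b come from Eno1b or from another copy cannot be told apart in these counts. Of the other glycolytic genes Gapdh fell (-0.67, edgeR adjusted p = 0.0187), whereas Eno3 stood at -0.67 (0.0819), Pgk1 at -0.22 (0.178) and Pgam1 at 0.05 (0.81).

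**Figure D5:**
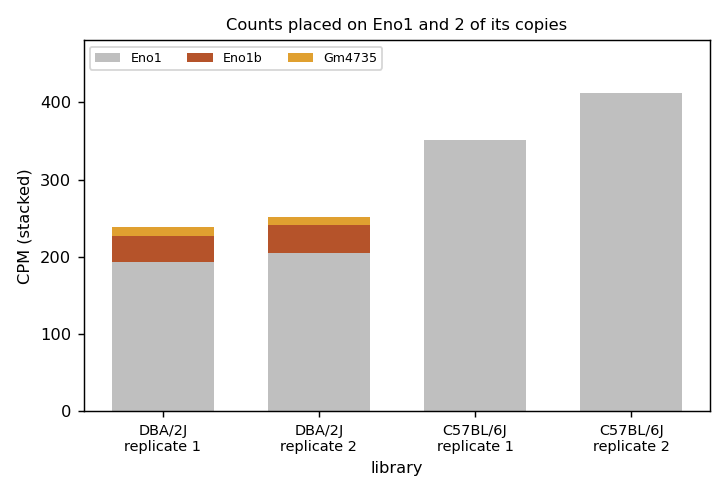
Stacked CPM of Eno1 (grey), Eno1b (rust) and Gm4735 (yellow) in each of the 4 libraries. The copies are visible in the DBA/2J bars, where they take 18.9% and 18.7%, and the C57BL/6J bars are taller.

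Of the markers of tissues in which the members are better known, those of heart, stomach, neurons and B cells were not called. In bulk liver, fewer cells of a type and less RNA per cell cannot be told apart. Heart markers, the list closest to Corin, varied within strains: Myh6 had 1 and 310 counts in DBA/2J and 314 and 2 in C57BL/6J. Their summed level ranged from 1.49 to 9.62 CPM in DBA/2J and from 0.982 to 19.1 CPM in C57BL/6J. Beside these Myh6 counts, Corin had 1432 and 1369 counts in DBA/2J and 10 and 1 in C57BL/6J. Within C57BL/6J the library with more Corin counts was also the one with more Myh6, Actc1 (172 and 1) and Tnni3 (156 and 2), and within DBA/2J it was the one with fewer. The part of heart RNA in the few C57BL/6J counts of Corin was not tested. edgeR called 0 of 5 tested heart markers (0 at an unadjusted p under 0.05 and 0 in DESeq2).

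Of the stomach markers, the list closest to Ctse, Gkn1 and Gkn2 had 0 counts in all 4 libraries, and the summed level was 2.07 to 3.47 CPM in DBA/2J and 1.97 to 2.30 CPM in C57BL/6J. edgeR called 0 of 3 tested (1 at an unadjusted p under 0.05 and 0 in DESeq2). Of these, Muc6 (1.84, edgeR adjusted p = 0.212) and Tff2 (1.49, 0.109) had positive differences and Atp4a (-0.77, 0.246) a negative one. Tff2 had 18 and 36 counts in DBA/2J and 12 and 6 in C57BL/6J, and Muc6 14 and 110 against 13 and 19. The part of stomach RNA in the Ctse difference was not tested. Red cell markers moved in the same direction as Ctse: 2 of 5 tested were higher, Alas2 (0.93, edgeR adjusted p = 0.0155) and Hba-a1 (0.72, 0.0298). Their summed level was 294 to 343 CPM in DBA/2J and 172 to 210 CPM in C57BL/6J. The part of red cells in the Ctse difference was not tested.

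B cell markers, the list closest to Nuggc, summed to 2.09 to 2.26 CPM in DBA/2J and 1.62 to 3.78 CPM in C57BL/6J, with 0 of 6 called by edgeR (0 at an unadjusted p under 0.05 and 0 in DESeq2). Of the neuron markers, the list closest to Ntrk2, Snap25 had 1 and 2 counts in DBA/2J and 0 and 0 in C57BL/6J. edgeR called 0 of 2 tested neuron markers (1 at an unadjusted p under 0.05 and 0 in DESeq2). Syt1, with at least 789 counts in every library, made up most of that list's 19.8 to 22.6 CPM in DBA/2J and 16.0 to 17.5 CPM in C57BL/6J. Stellate cell markers summed to 198 to 250.3 CPM in DBA/2J and 109 to 159 CPM in C57BL/6J, and 1 of 6, Reln, was called (1.30, edgeR adjusted p = 0.00453). Their part in the strain difference of the 8 genes was not tested. Adrenal markers, which include the Mrap partner Mc2r, summed to 3.92 to 4.68 CPM in DBA/2J and 7.23 to 9.03 CPM in C57BL/6J, with Cyp21a1 lower (-2.10, edgeR adjusted p = 0.0186). Star, the other tested adrenal marker, stood at -0.06 (edgeR adjusted p = 0.844), and the rest of that list had at most 2 counts in a library.

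For Tmc5, a gene of epithelia, bile duct markers summed to 24.1 to 24.7 CPM in DBA/2J and 49.95 to 76.8 CPM in C57BL/6J. Of these 6 markers 1 was called, Spp1, which was lower (14.0 against 51.1 CPM, -1.86, edgeR adjusted p = 0.00474) and made up most of the sums in C57BL/6J. Krt19 (0.56) and Krt7 (0.41), keratin genes of bile duct cells, had positive differences and Sox9 (-0.42), Epcam (-0.56) and Cftr (-0.73) negative ones, none of them called. Intestine markers summed to 71.6 to 76.4 CPM in DBA/2J and 66.5 to 73.0 CPM in C57BL/6J, with Fabp2 higher (0.39, edgeR adjusted p = 0.0401), Lgals4 lower (-0.96, 0.0152) and Cdx1 and Cdx2 at 0 in all libraries. Hepatocyte markers, led by albumin at 5.91% to 6.82% of counts, had 0 of 6 called by edgeR (0 at an unadjusted p under 0.05 and 0 in DESeq2). Of the pancreas markers Cela2a, the 1 tested, had 0 and 0 counts in DBA/2J and 30 and 33 in C57BL/6J and was called lower. The other pancreas markers had at most 2 counts in a library. Of 5 endothelial markers 1 was called, Stab2, which was higher (0.40, edgeR adjusted p = 0.042), while Clec4g stood at -0.13. With a replicate block the calls of Stab2 (edgeR adjusted p = 0.0542) and Fabp2 (0.0611) did not hold, nor with no filter on low counts those of Stab2 (0.0967), Fabp2 (0.0964) and Hba-a1 (0.0726). None of these marker calls held when either of the DBA/2J libraries was left out, and most calls over all tested genes were lost as well.

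Library totals lay between 48096706 and 52520737 counts, and the C57BL/6J pair differed more across genes (r = 0.982 for log2 CPM) than the DBA/2J pair (r = 0.992).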

How the data were processed

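Liver poly(A) RNA was measured in 4 libraries, grouped by the strain label. The design text gives 2 mice per strain. The p-values set the strain difference against the spread between these samples, estimated with information shared across genes. The deposited values were raw counts per gene symbol. The labels give single-end reads, whereas the file headers carry the paired-end option, so whether a count is a read or a fragment is not settled, and counting intervals take each count as a single event. Per the file headers, featureCounts 2.0.1 counted exons of Ensembl release 88 (GRCm38) with no strand, multi-mapping or multi-overlap option; the submitters' processing notes name featureCounts 1.5.2, STAR 2.4.0g1 and mm10. Reads that match several places therefore can go uncounted, and DBA/2J reads that differ from the C57BL/6J-based genome can be lost or misplaced.

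Counts were tested with edgeR 4.0.16 (R 4.3.3; quasi-likelihood F test, legacy=FALSE, TMM, strain alone) on the 15647 genes kept by filterByExpr (minimum count 10), with Benjamini-Hochberg adjustment and a threshold of 0.05. The SE is the log2 difference over the root of F. The fit was tested on simulated data. Alternatives were DESeq2 1.42.0, library totals, no filter, the older fit, a replicate block and each library left out. Ratio intervals are exact (Clopper-Pearson) at 95%.

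Members and lists were chosen with earlier results of these data known. Named genes were the 8 members; called partners, neighbours and markers, with up to 3 genes of lowest p per partner list and the nearest neighbours; the 10 most alike genes; and Mlycd. Some genes that the rule names are not reported here. Further genes (ligands, receptors and defining markers at or near 0 counts, Bdnf, Eno3, Lcn2, Myh6, Npr1, Npr2, Npr3, Ntrk3, Pgam1, Pgk1, Shc1 and Syt1) were added after their values were seen. Shared windows were sought in GENCODE M21 transcripts.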

Additional observations from a re-analysis of the deposited data

How the results depend on the processing

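Across all genes, 2842 were called. The count was 1516 with no filter on low counts and ranged from 292 to 4905 with single libraries left out, with 292 when DBA/2J replicate 1 was left out, 313 when its replicate 2 was, and 4905 for C57BL/6J replicate 2. Scaling by library totals alone split the calls into 1924 higher and 1024 lower, against 1454 and 1388. Called partner genes numbered 15, with 9 under no filter and 1 to 31 with single libraries left out (1 with either of the DBA/2J libraries left out, 31 for C57BL/6J replicate 2). Called neighbours numbered 18, with 11 under no filter, 4 within 100 kb, 7 without the neighbours of Obp2a (an alternative chosen after seeing the data) and 0 to 32 with single libraries left out. The 0 came without DBA/2J replicate 2, where edgeR gave 24 neighbours at an unadjusted p under 0.05; 1 was called with DBA/2J replicate 1 left out, and 32 with C57BL/6J replicate 2 left out. Apart from the construction of these alternatives (fewer libraries, more genes tested), the cause was not tested.

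With the replicate block there were 2395 called genes, 14 partners and 15 neighbours. Same-numbered libraries did not deviate together (r = -0.064), so the numbers were not taken as pairs. Of 349 values for called partner, neighbour and marker genes, 246 stayed called, 0 reversed direction and the rest lost the call. Genes that were not called are not in this tally. Of 47 member ratios, 13 moved by more than the DBA/2J replicate spread; their direction was fixed by how the genes were picked. DESeq2 and the older fit changed none of the 3 total counts (all genes, partners, neighbours) by more than 1.5 times. Of smaller counts, DESeq2 called 3 neighbours of Ctse (edgeR 1) and 0 of Ntrk2 (edgeR 1, with 2 at an unadjusted p under 0.05). It also called 1 gene of the Tmc5 list (edgeR 0) and 2 stellate markers (edgeR 1). For Corin, Tmc5, Mrap2 and Nuggc, few C57BL/6J counts limit the ratios.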
